A study of Mus musculus with 9 samples.

Results

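MHC class II presentation is represented here by 8 genes: *H2-Aa*, *H2-Ab1*, *H2-Eb1*, *Cd74*, *H2-DMa*, *H2-DMb1*, *Ciita* and *Ctss*. They were chosen by name as the class II chains, the invariant chain, the loading and processing genes and the trans-activator, and each was found in the count table, so that 8 of 27719 genes are described. The data come from the colon of 9 C57BL/6J mice, 3 in a control group, 3 in a DSS group and 3 in a DSS + EA group, and 1 Oxford Nanopore cDNA library was made per mouse. Dextran sodium sulfate (DSS) in the drinking water damages the lining of the colon, and both treated groups took it at 2.5% for 7 days, while the control mice had distilled water. Electroacupuncture (EA) is stimulation by current between inserted needles. The DSS + EA mice received it at ST36 on both sides in daily sessions of 30 minutes on 5 days, with 0.2 mA at 2 Hz, starting once the model had run for 5 days. Handling was matched in the other mice, which had equal holding time and no current. The age and sex of the mice are not given in the sources used here.

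MHC class II molecules are pairs of an α and a β chain that show peptides from endocytosed proteins to CD4+ T cells. The invariant chain, the product of *Cd74*, holds new class II molecules and blocks their groove until cathepsin S and other endosomal proteases trim it to a short remnant called CLIP. The H2-DM heterodimer then exchanges CLIP for antigenic peptide. CIITA does not bind DNA itself. It is recruited to the X and Y boxes of class II promoters by RFX, CREB and NF-Y proteins, and it is induced by interferon-γ. Dendritic cells, macrophages and B cells carry class II molecules constantly, and gut epithelial cells can acquire them in inflammation.

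The 5 genes of the chains and of H2-DM lie together on chromosome 17 in the GRCm38 assembly (GENCODE M21): *H2-DMa* (chr17:34119541-34139101, plus strand), *H2-DMb1* (chr17:34153072-34160230, plus), *H2-Ab1* (chr17:34257689-34269419, plus), *H2-Aa* (chr17:34282744-34287823, minus) and *H2-Eb1* (chr17:34305867-34316674, plus). *Ciita* (chr16:10480059-10528418, plus) and *Ctss* (chr3:95526786-95556403, plus) lie on other chromosomes. Each of the 8 is annotated as protein-coding. RefSeq promoter windows of GRCm38.p6 were matched for 5 of the 8 members, in 6 windows. The stretches below are shown because they hold the letters of the elements through which CIITA and interferon act. The letters searched, chosen after the sequences were seen, were CTNGNAACT for the core of the X box, TGATTGG for the core of the Y box and the repeat bound by interferon regulatory factors, called the IRF element here, on both strands of the 250 bases before the start. ATTGG, which is CCAAT on the other strand and part of the Y box letters, was searched as well. Capitals mark the matches, and each stretch is given 5′ to 3′ on the strand of its gene.
H2-Aa, chr17:34287855-34287915, minus strand: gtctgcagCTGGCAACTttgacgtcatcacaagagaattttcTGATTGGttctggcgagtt
H2-Eb1, chr17:34305765-34305824, plus strand: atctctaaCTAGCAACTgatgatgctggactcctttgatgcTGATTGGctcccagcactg
Ctss, chr3:95526750-95526785, plus strand: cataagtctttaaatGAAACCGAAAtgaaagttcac

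In *H2-Aa* the X box letters ended 76 bases before the start and were followed after 25 bases by the Y box letters. The spacing was 24 bases in *H2-Eb1*. *H2-DMb1* held both sets of letters 25 bases apart as well, at 97 to 89 and at 63 to 57 bases before its RefSeq start, in a stretch that GENCODE M21 places in the first exon. Among 32851 promoter windows, 3.47% held the X box letters, 7.23% the Y box letters, 2.98% the IRF letters and 33.8% ATTGG. Both box cores on the same strand, starting less than 60 bases apart, were found in 14 windows, or 0.0426%, and *H2-Aa*, *H2-Eb1* and *H2-DMb1* were among these. The *H2-DMa* windows held neither box core, and ATTGG occurred at 198 to 194 bases before an *H2-DMa* start. The *Ctss* window held the IRF letters at 21 to 12 bases before the start and no box core. A match of letters is a description of the sequence and not a measured binding site.

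Between 2627695 and 4235576 reads per mouse were counted on genes, so that 3 counts corresponded to between 0.647 and 1.14 CPM (counts divided by the library total after scaling with TMM factors). Markers of colon epithelium were present, and none of the 12 was at 0 in every mouse of any group. Some libraries stood apart. Of all counts, 12 pancreas acinar markers took 4.37% in DSS + EA mouse 2 and 1.94% in DSS + EA mouse 3, compared with 0.0689% in DSS + EA mouse 1 and at most 0.0897% in the other mice. The summed level of 10 neutrophil markers was 2461 CPM in DSS mouse 1 and 22215 and 25830 CPM in DSS mice 2 and 3. Calls of the members that were lost without these libraries are given with both values.

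Compared with the control group, the DSS group had lower levels of the class II chains, the invariant chain and *Ciita*, and a higher level of *Ctss*. The call of *Ciita* was lost in most alternative fits. Compared with the DSS group, the DSS + EA group had higher levels of 7 of the 8 genes, including both H2-DM chains, while *Ctss* did not pass the test. No member passed the test between the DSS + EA and control groups. Unless another test is named, adjusted p-values are from edgeR's quasi-likelihood test with Benjamini-Hochberg adjustment over 12566 genes, and a gene was called at an adjusted p under 0.05. In the comparison of DSS with control, 6 of 8 members were called, 5 lower and 1 higher, where 40.9% of all genes tested were called in either direction, 19.5% were called lower and 21.5% higher. Of the 8 members, 7 were called higher in DSS + EA than in DSS, where 35.5% of all genes were called in either direction and 17.2% were called higher. Levels did not overlap between the groups for the 5 members that fell with DSS, as for 25.9% of all genes in that direction, and for the 7 members higher in DSS + EA than in DSS, as for 24.2% of all genes. The median log2 fold change of the members was -0.97 for DSS against control and 1.41 for DSS + EA against DSS, beside 0.02 and -0.02 over all genes tested. The DSS mice are the same 3 animals in each of these comparisons, and a low value in them enters both. The tissue was measured in bulk, and fewer cells of a type cannot be told apart from less RNA per cell.

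*H2-Ab1*, the β chain of the I-A molecule, was counted at 308, 330 and 316 CPM in control mice 1, 2 and 3. Its level was 99.9, 141 and 84.8 CPM in the DSS mice and 478, 269 and 403 CPM in the DSS + EA mice. All 3 DSS mice lay below every other mouse, while the DSS + EA mice spread on both sides of the control mice. The fall in the DSS group was 2.93-fold (log2 fold change -1.55, SE 0.26, adjusted p = 0.00132 by edgeR's quasi-likelihood test). The level in the DSS + EA group was 3.53-fold higher than in the DSS group (log2 fold change 1.82, SE 0.26, adjusted p = 0.00111).

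*H2-Aa* encodes the α chain that pairs with the product of *H2-Ab1*. Its level was 169, 211 and 185 CPM in the control mice, 102, 119 and 92.3 CPM in the DSS mice and 302, 225 and 292 CPM in the DSS + EA mice. Here the 3 groups did not overlap, with DSS lowest and DSS + EA highest. *H2-Aa* fell 1.80-fold with DSS (log2 fold change -0.85, SE 0.19, adjusted p = 0.00623) and was 2.60-fold higher with EA than with DSS alone (log2 fold change 1.38, SE 0.19, adjusted p = 0.000992).

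*H2-Eb1*, the β chain of the I-E molecule, was present at 159, 187 and 142 CPM in the control mice, at 50.1, 79.8 and 38.1 CPM in the DSS mice and at 238, 156 and 218 CPM in the DSS + EA mice. The DSS mice were again the 3 lowest, and DSS + EA mouse 2 lay within the range of the control mice. The log2 fold change was -1.54 for DSS against control (SE 0.29, adjusted p = 0.00245) and 1.86 for DSS + EA against DSS (SE 0.29, adjusted p = 0.00153). The α chain of I-E is not made in C57BL/6 mice, and its gene was not matched in the table.

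*Cd74* (chr18:60803848-60812652, plus strand), the invariant chain, was counted at 256, 300.2 and 213 CPM in the control mice and at 88.7, 166 and 103 CPM in the DSS mice. In the DSS + EA mice it was at 347, 256 and 363 CPM. DSS mouse 2 was the highest of its group for *Cd74* and for each of the class II chains, and it still lay below every control mouse. *Cd74* fell 2.15-fold with DSS (log2 fold change -1.10, SE 0.27, adjusted p = 0.00862) and was 2.70-fold higher in DSS + EA than in DSS (log2 fold change 1.43, SE 0.27, adjusted p = 0.00355).

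**Figure D1:**
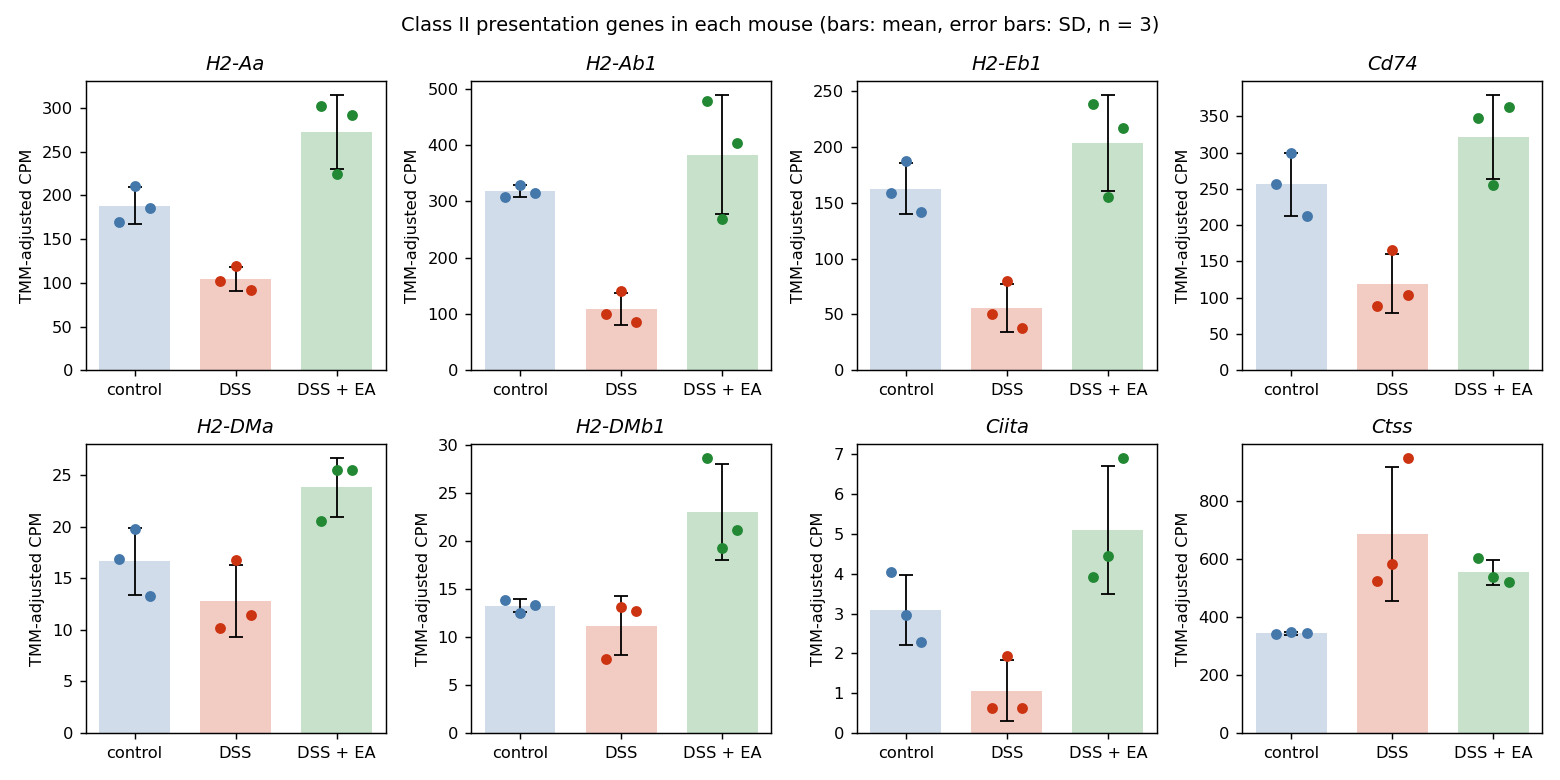
Level of each of the 8 genes in each mouse, in CPM on a linear axis that starts at 0, with a panel per gene. Points are mice, bars mark the mean and error bars the SD of 3 mice per group. For the chains, *Cd74* and *Ciita* the DSS mice lie below all other mice, the H2-DM panels show DSS overlapping control, and for *Ctss* the control mice are the lowest.

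The H2-DM genes, which encode the peptide exchange factor, differed less between DSS and control. *H2-DMa* was at 16.9, 19.8 and 13.3 CPM in the control mice, at 10.2, 16.8 and 11.5 CPM in the DSS mice and at 20.5, 25.6 and 25.5 CPM in the DSS + EA mice. *H2-DMb1* was at 13.9, 12.5 and 13.3 CPM in the control mice, at 7.66, 13.2 and 12.7 CPM in the DSS mice and at 28.7, 19.3 and 21.1 CPM in the DSS + EA mice. For both genes the DSS and control mice overlapped, and every DSS + EA mouse lay above all other mice. The difference between DSS and control was not called for *H2-DMa* (log2 fold change -0.37, 95% interval -0.94 to 0.21, adjusted p = 0.277) or for *H2-DMb1* (log2 fold change -0.24, 95% interval -0.83 to 0.36, adjusted p = 0.501). Between DSS + EA and DSS the log2 fold change was 0.88 for *H2-DMa* (SE 0.26, adjusted p = 0.0240) and 1.03 for *H2-DMb1* (SE 0.26, adjusted p = 0.0136).

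These calls depended on single mice. *H2-DMa* was no longer called without DSS mouse 3 (adjusted p = 0.0702), without DSS + EA mouse 2 (0.0571) or without DSS + EA mouse 3 (0.0783), and *H2-DMb1* was no longer called without DSS + EA mouse 1 (0.0585). *H2-DMb1* has a close neighbour, *H2-DMb2*, whose transcript is 95.4% identical over 848 aligned bases, so that reads could have been divided between them. The summed counts of the pair were 68, 52 and 40 in the control mice, 24, 72 and 46 in the DSS mice and 111, 58 and 83 in the DSS + EA mice. In CPM this sum was 16.5 ± 1.12 (SD, n = 3) in control, 12.5 ± 4.22 in DSS and 27.0 ± 6.07 in DSS + EA mice, the same order as for *H2-DMb1* alone. *H2-DMa* overlaps *Brd2* and *Ciita* overlaps *Dexi* on the opposite strand, and whether the counting used strand is not stated.

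*Ciita*, the trans-activator on which transcription of the class II chain genes depends, was close to the limit of detection. The control mice had 16, 9 and 6 counts of it, the DSS mice 2, 9 and 2, and the DSS + EA mice 13, 12 and 22. Scaled to library size these were 4.03, 2.97 and 2.28 CPM, 0.638, 1.94 and 0.619 CPM, and 3.93, 4.45 and 6.92 CPM. After scaling, the DSS mice lay below every control mouse and every DSS + EA mouse. The log2 fold change for DSS against control was -1.43 (SE 0.51, adjusted p = 0.0471), a call that was lost in 13 of 16 alternative fits. Among these were DESeq2 (adjusted p = 0.0934), library totals (0.0635), no count filter (0.0540) and the replicate number as a block (0.0809). They also include each fit without a single mouse other than DSS mouse 2 (adjusted p up to 0.162, and 0.0957 without DSS mouse 1). Without DSS mouse 2 the log2 fold change was -2.24. The log2 fold change for DSS + EA against DSS was 2.12 (SE 0.49, adjusted p = 0.00936), and 2.94 without DSS mouse 2.

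*Ctss*, the protease that trims the invariant chain, went the other way. Its level was 339, 349 and 343 CPM in the control mice, 523, 583 and 950 CPM in the DSS mice and 603, 537 and 520 CPM in the DSS + EA mice. All treated mice lay above all control mice, DSS mouse 3 was the highest, and the DSS and DSS + EA mice overlapped. *Ctss* rose 1.99-fold with DSS (log2 fold change 0.99, SE 0.23, adjusted p = 0.00735). The difference between DSS + EA and DSS was not called (log2 fold change -0.31, 95% interval -0.82 to 0.20, adjusted p = 0.313).

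**Figure D2:**
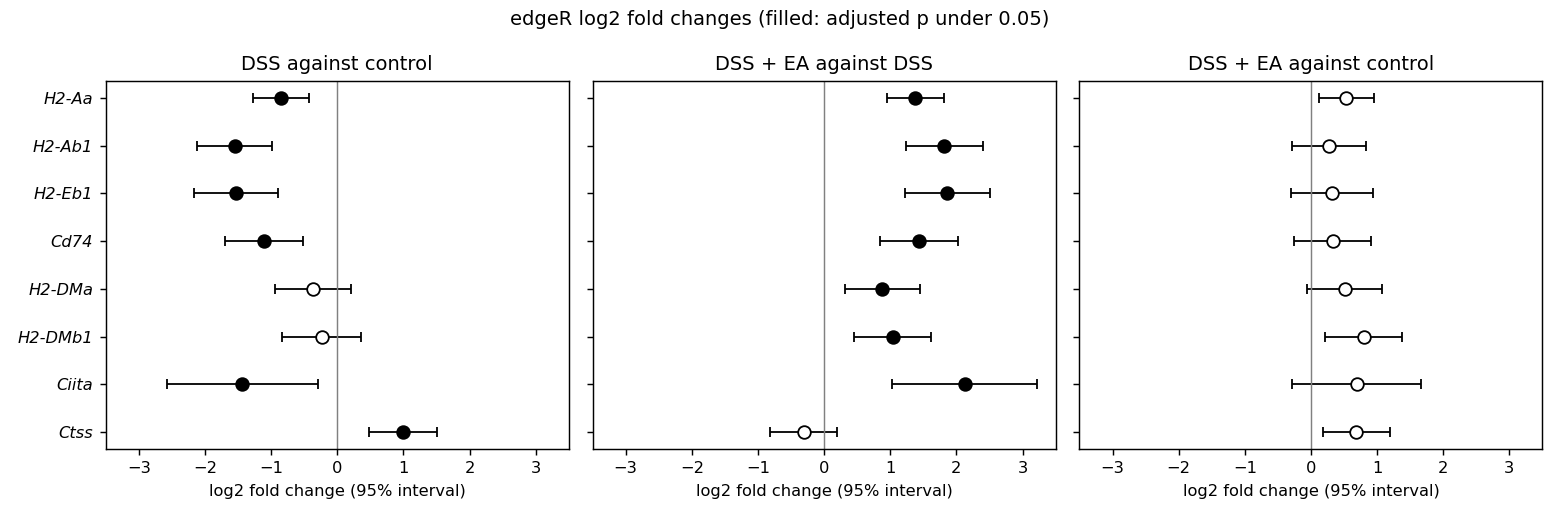
Fitted log2 fold changes of the 8 genes in the 3 comparisons, with 95% intervals of the edgeR fit and filled points for an adjusted p under 0.05. For DSS against control the values of the chains, *Cd74* and *Ciita* lie below 0 and *Ctss* lies above 0, for DSS + EA against DSS the values of all but *Ctss* lie above 0, and for DSS + EA against control no gene passed the adjusted threshold.

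Between the DSS + EA and control groups, 0 of 8 members were called by edgeR, where 3.64% of all genes tested were called. At an unadjusted P under 0.05, 3 members passed with edgeR and 3 with DESeq2, which also called 0 after adjustment. The fitted log2 fold changes were all above 0, from 0.27 for *H2-Ab1* (95% interval -0.29 to 0.83) to 0.80 for *H2-DMb1* (95% interval 0.21 to 1.38). All 3 DSS + EA mice lay above all 3 control mice for *H2-Aa*, *H2-DMa*, *H2-DMb1* and *Ctss*, a separation in that direction seen in 18.0% of all genes. When only these 2 groups entered the fit, *H2-DMb1* (log2 fold change 0.80, adjusted p = 0.0424) and *Ctss* (log2 fold change 0.69, adjusted p = 0.00772) were called. *Ctss* was also called without DSS mouse 3 (log2 fold change 0.66, adjusted p = 0.0411).

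The results were next read without the libraries that stood apart. Without DSS mouse 1, which had the lowest summed neutrophil marker level of its group, 5 members were called for DSS against control and 7 for DSS + EA against DSS. With DSS + EA mice 2 and 3 left out together, a choice made after seeing the data, 1 DSS + EA mouse remained and is assumed to vary like the other groups. The chains and *Cd74* were still called against DSS, with log2 fold changes of 1.55 for *H2-Aa* (adjusted p = 0.0241), 2.16 for *H2-Ab1* (adjusted p = 0.0149), 2.11 for *H2-Eb1* (adjusted p = 0.0249) and 1.56 for *Cd74* (adjusted p = 0.0496). *H2-DMa* (log2 fold change 0.69, adjusted p = 0.278), *H2-DMb1* (1.37, 0.0611) and *Ciita* (1.78, 0.174) were not. In this fit 4 members were called in place of 7.

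The proportions of the members to each other, taken within each library, were compared to see which genes kept step. With 3 mice against 3 the exact two-sided permutation test cannot give a p below 0.1, so these are described by overlap, and the ratios were chosen after the levels were seen. The ratio of *H2-Eb1* to *H2-Ab1* counts was 0.511 ± 0.0594 (SD, n = 3) in control, 0.506 ± 0.0594 in DSS and 0.539 ± 0.0405 in DSS + EA mice, and the groups overlapped in every comparison. Both β chains moved by similar amounts. The ratio of *H2-Aa* to *H2-Ab1* was 0.549, 0.640 and 0.587 in the control mice, 1.03, 0.850 and 1.09 in the DSS mice and 0.632, 0.836 and 0.725 in the DSS + EA mice. Each DSS mouse lay above every other mouse (exact permutation p = 0.1 against control and against DSS + EA).

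The H2-DM genes also held a larger proportion in DSS mice. The ratio of *H2-DMa* to *H2-Ab1* was 0.0523 ± 0.00917 (SD, n = 3) in control, 0.119 ± 0.0164 in DSS and 0.0671 ± 0.0263 in DSS + EA mice. For *H2-DMb1* to *H2-Ab1* the means were 0.0417, 0.107 and 0.0613 in the same order. In both ratios the DSS mice lay above all others (exact permutation p = 0.1 against control and against DSS + EA). Between DSS + EA and control the *H2-DMa* to *H2-Ab1* ratio overlapped. The *H2-DMb1* to *H2-Ab1* ratio was higher in every DSS + EA mouse than in every control mouse (exact permutation p = 0.1). The ratio of *H2-DMa* to *H2-DMb1* overlapped between all groups. Of the 8 ratios taken, that of the protease to its substrate shifted most between DSS and control. The ratio of *Ctss* to *Cd74* was 1.33, 1.16 and 1.62 in the control mice, 5.89, 3.52 and 9.21 in the DSS mice and 1.74, 2.10 and 1.43 in the DSS + EA mice, and the DSS mice again stood above all others.

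**Figure D3:**
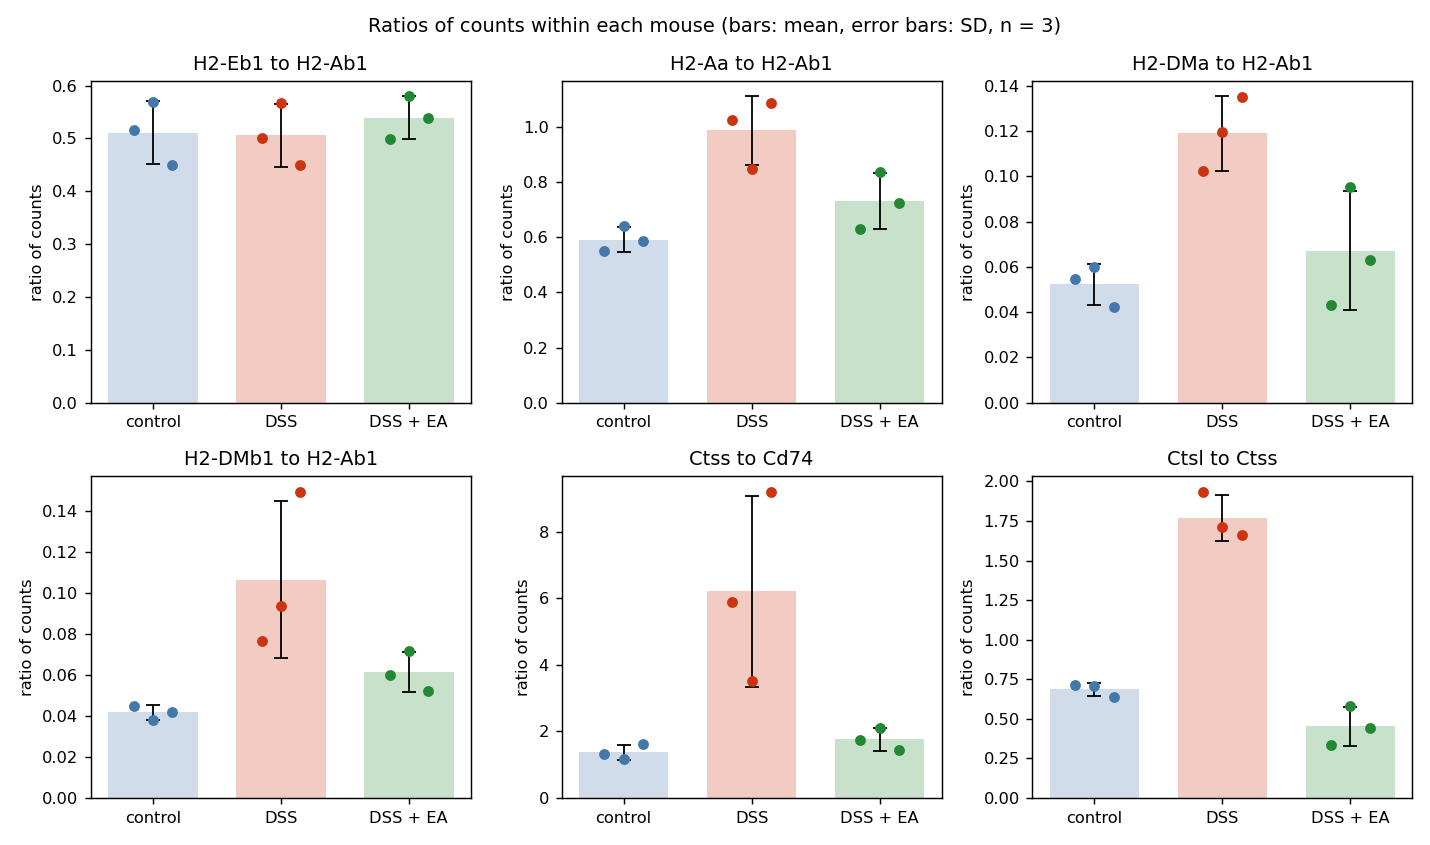
Ratios of the counts of pairs of genes within each mouse, on linear axes that start at 0, with mice as points, the mean as bars and the SD of 3 mice as error bars. The *H2-Eb1* to *H2-Ab1* ratio overlaps between the 3 groups, while the *Ctss* to *Cd74* ratio is between 3.52 and 9.21 in DSS mice and between 1.16 and 2.10 in the other mice.

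Other class II chains were counted at low levels. Counts called in this and the later lists stand beside 40.9% of all genes called with DSS and 35.5% called between DSS + EA and DSS. *H2-Oa* and *H2-Ob* encode the H2-O heterodimer, which restrains H2-DM. Of *H2-Oa*, *H2-Ob* and *H2-DMb2*, which were the 3 of 5 listed genes that could be tested, *H2-Ob* fell with DSS from 4.99 ± 0.839 to 1.13 ± 1.08 CPM (SD, n = 3), with a log2 fold change of -1.99 (SE 0.61, adjusted p = 0.0259), a call that was lost without control mouse 1, 2 or 3 or DSS mouse 3 (adjusted p from 0.0501 to 0.0710). Between DSS + EA and DSS 0 of the 3 were called by edgeR, with 2 higher at an unadjusted P under 0.05 and 1 called by DESeq2, and 1 and 2 were called higher by edgeR without DSS mouse 1 and DSS mouse 2.

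Like *Ctss*, most of the listed proteases of the endosome were higher in DSS than in control mice. Of 9 listed genes tested, 6 rose with DSS and 0 fell, also at an unadjusted P under 0.05 and with DESeq2, and between DSS + EA and DSS 1 was higher and 4 were lower. The 9 include *Cst3* and *Asah1*, which do not encode proteases and were not called in either comparison. *Lgmn*, the asparagine endopeptidase of the endosome, rose from 67.8 to 367 mean CPM with DSS (log2 fold change 2.44, SE 0.29, adjusted p = 0.000254) and was lower in DSS + EA mice, at 161 CPM (log2 fold change -1.18, SE 0.28, adjusted p = 0.00994). *Ctsl*, cathepsin L, rose from 236 to 1196 mean CPM (log2 fold change 2.34, SE 0.25, adjusted p = 0.000149) and was at 247 CPM in DSS + EA mice (log2 fold change -2.27 against DSS, SE 0.25, adjusted p = 0.000403). *Ctsb*, *Ctsd*, *Ctsh* and *Ctsz* were the others that rose with DSS, with log2 fold changes from 0.96 to 1.71. *Sppl2a*, the intramembrane protease that clears the last fragment of the invariant chain, was the gene higher in DSS + EA than in DSS, at 323 and 142 mean CPM (log2 fold change 1.19, SE 0.28, adjusted p = 0.01005). Without DSS + EA mouse 1, the count of lower proteases was 2. Without both DSS + EA mice of raised pancreatic counts, which leaves 1 mouse in that group, 0 proteases were higher and 1, *Ctsl*, lower in DSS + EA than in DSS, and the adjusted p was 0.219 for *Lgmn* and 0.132 for *Sppl2a*. *Sppl2a* was called lower with DSS without DSS mouse 1 (log2 fold change -0.94, adjusted p = 0.00306). Cathepsin L and cathepsin S can both trim the invariant chain. The ratio of *Ctsl* to *Ctss* was 0.687 ± 0.0408 (SD, n = 3) in control, 1.77 ± 0.146 in DSS and 0.452 ± 0.124 in DSS + EA mice, with no overlap between any 2 groups (exact permutation p = 0.1 each).

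Among genes of the factors that bind class II promoters or serve as their co-activators, 9 of 11 were tested. With DSS, 2 were higher and 2 lower, near the share of 40.9% of all genes called in either direction. Between DSS + EA and DSS 1 was higher and 1 lower, where 35.5% of all genes were called. *Rfxank*, a subunit of the RFX complex, fell from 14.6 to 4.24 mean CPM with DSS (log2 fold change -1.77, SE 0.26, adjusted p = 0.000755) and was at 7.75 CPM with EA (log2 fold change 0.87 against DSS, SE 0.27, adjusted p = 0.0324). The last call was lost with DESeq2 (adjusted p = 0.0841), which called 0 of the 9 higher in DSS + EA than in DSS, and without control mouse 1, DSS mouse 2 or 3, or DSS + EA mouse 1 or 3 (adjusted p from 0.0520 to 0.111). *Rfx5*, the DNA-binding subunit, was at 3.53, 3.14 and 3.04 mean CPM in control, DSS and DSS + EA mice and was not called. *Nfyc*, a subunit of NF-Y, fell with DSS (log2 fold change -0.65, adjusted p = 0.0393), which was lost with library totals (adjusted p = 0.0692) and without control mouse 1, 2 or 3 or DSS + EA mouse 3 (adjusted p from 0.0520 to 0.0969). *Crebbp* and *Ep300*, which encode histone acetyltransferases that work with CIITA, rose with DSS (log2 fold changes 1.43 and 1.00), *Ep300* not without control mouse 1 or 3 or DSS mouse 2 or 3 (adjusted p from 0.0568 to 0.102). Without both DSS + EA mice of raised pancreatic counts, 0 of the 9 were called between DSS + EA and DSS.

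Among the genes of the interferon-γ response, *Irf1* and *Irf2* differed between the groups in the same directions as the chains. Of 7 listed genes tested, 3 fell and 1 rose with DSS, and 2 were higher and 1 lower in DSS + EA than in DSS. *Irf1*, a transcription factor induced by interferon that acts on *Ciita*, was at 73.6 ± 4.71 CPM (SD, n = 3) in control, 39.7 ± 14.4 in DSS and 101 ± 6.28 in DSS + EA mice, and *Irf2* was at 61.7 ± 3.70, 19.8 ± 3.27 and 66.0 ± 3.25 CPM. Both were called in the comparison of DSS with control and of DSS + EA with DSS, with log2 fold changes of -0.89 and 1.35 for *Irf1* and of -1.64 and 1.74 for *Irf2*. *Jak2*, a kinase of the receptor, moved the other way, with log2 fold changes of 1.58 and -1.77. For DSS against control, *Irf1* was not called without control mouse 1 (adjusted p = 0.0509) or DSS mouse 2 (adjusted p = 0.0575). Without both DSS + EA mice of raised pancreatic counts, *Irf2* alone of the 7 was called between DSS + EA and DSS, with an adjusted p of 0.0726 for *Irf1* and 0.0860 for *Jak2*. *Ifng* itself had between 0 and 3 counts per mouse, and no difference was detectable at this depth.

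**Figure D4:**
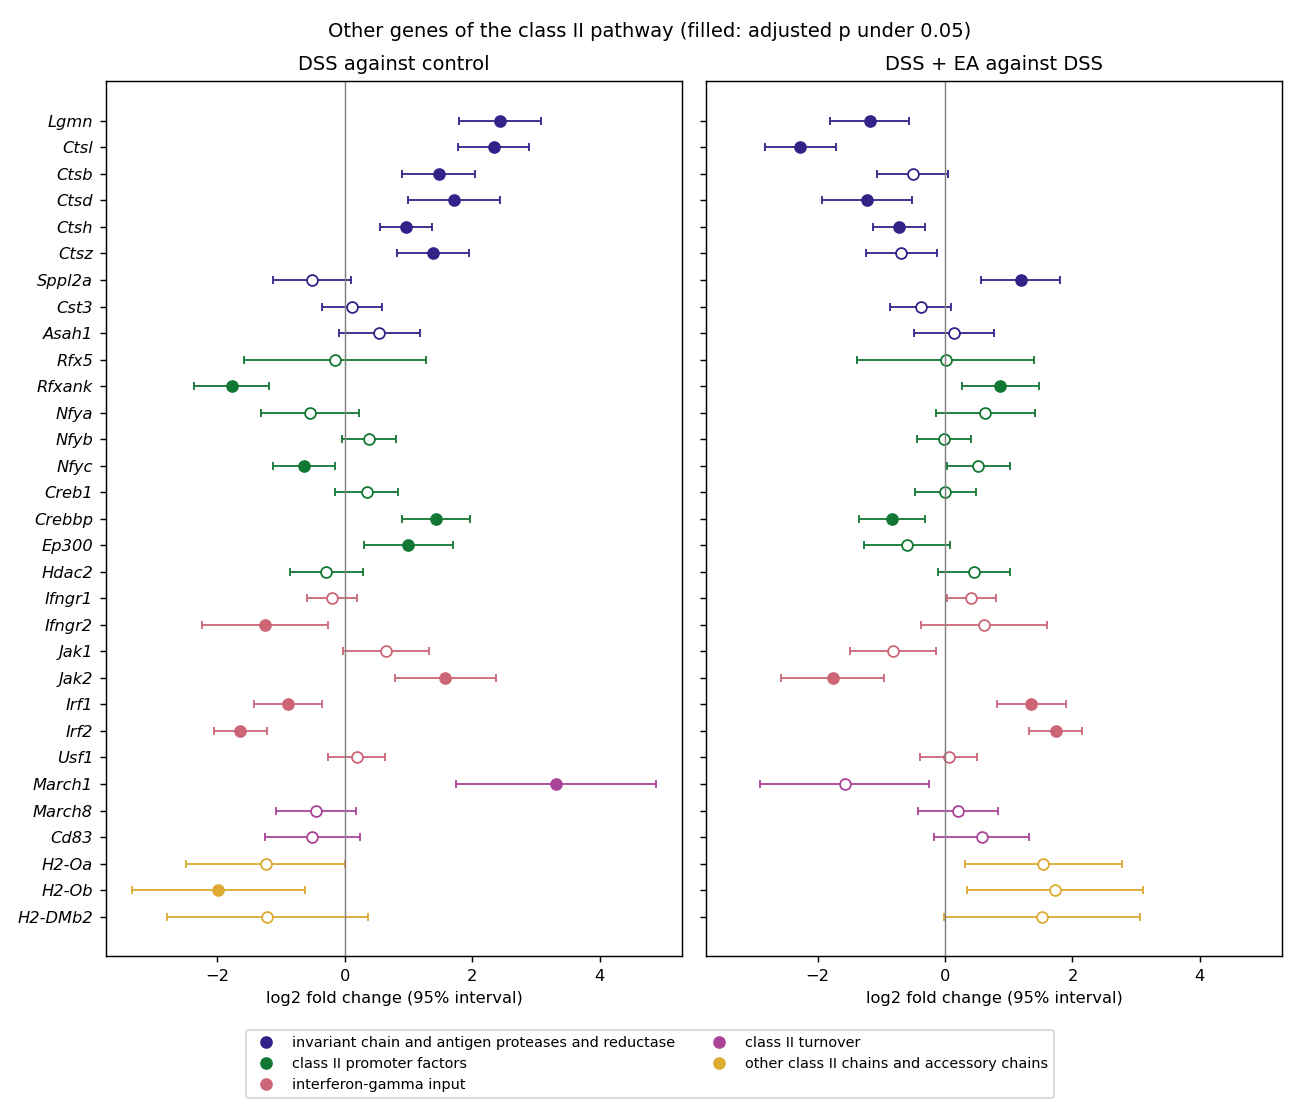
Log2 fold changes with 95% intervals of the other genes with a part in class II presentation, coloured by role and filled for an adjusted p under 0.05, for DSS against control and for DSS + EA against DSS. *Lgmn* and *Ctsl* lie to the right of 0 in the first and to the left in the second, and *Rfxank*, *Irf1* and *Irf2* the reverse.

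Genes that bear on turnover and on co-stimulation were counted at lower levels. *March1*, a ubiquitin ligase that removes class II molecules from the surface, rose from 1.00 to 9.92 mean CPM with DSS (log2 fold change 3.31, SE 0.70, adjusted p = 0.00487), on 15, 24 and 64 counts in the DSS mice. It was the 1 called of 3 turnover genes tested, and *March8* and *Cd83* were not called (log2 fold changes -0.45 and -0.51). Between DSS + EA and DSS 0 of the 3 were called, with a log2 fold change of -1.58 for *March1* (adjusted p = 0.062). *Cd86* and *Cd40*, which encode co-stimulatory molecules of antigen-presenting cells, and *Cd274*, which encodes the inhibitory ligand PD-L1, also rose with DSS. Their log2 fold changes were 3.77, 2.10 and 1.84. Those 3 were all that were called of 5 tested, and 0 of 5 passed between DSS + EA and DSS with edgeR or DESeq2, also at an unadjusted P under 0.05, while edgeR called 2 lower without DSS mouse 1. *Cd274* was not called without control mouse 1, 2 or 3, DSS mouse 2 or 3, or DSS + EA mouse 1 or 3 (adjusted p from 0.0532 to 0.157). Against control, *Cd86* (log2 fold change 2.88, adjusted p = 0.0468) and *Cd40* (log2 fold change 2.71, adjusted p = 0.00874) were higher in DSS + EA mice. Both calls were lost without control mouse 1 (adjusted p = 0.231 and 0.0716), and that of *Cd86* also without every other mouse but DSS mice 1 and 3.

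Markers of the cells that carry class II molecules were counted as lists. The summed level of 13 macrophage markers was 487 to 509 CPM in control, 1529 to 2743 CPM in DSS and 985 to 1080 CPM in DSS + EA mice, and 10 of the 13 rose with DSS. *Lyz2* was the largest part of this sum, at 269.5, 902 and 442 mean CPM in control, DSS and DSS + EA mice. Between DSS + EA and DSS, 1 of the 13 was higher and 7 were lower, with 4 lower without DSS + EA mouse 2 and 0 higher and 2 lower without both DSS + EA mice of raised pancreatic counts. *Cx3cr1*, a marker of resident gut macrophages, was the exception that fell (log2 fold change -2.24, SE 0.56, adjusted p = 0.0110) and that was higher in DSS + EA than in DSS (log2 fold change 2.36, SE 0.56, adjusted p = 0.0103, and 0.0513 without both of those mice). The 11 dendritic cell markers summed to 83.0 to 95.1 CPM in control, 87.1 to 96.8 CPM in DSS and 102 to 151 CPM in DSS + EA mice, a sum of which *Irf8*, a transcription factor that B cells and macrophages also use, made up most, at 74.8, 77.3 and 108 mean CPM. Only 4 of them passed the count filter, of which *Batf3* and *Clec10a* were called higher with DSS, and *Batf3* was called lower in DSS + EA than in DSS (log2 fold change -1.46, adjusted p = 0.0211). DESeq2 called *Batf3* in neither comparison (adjusted p = 0.146 and 0.114). The rise of *Batf3* was also lost without control mouse 1, 2 or 3, DSS mouse 3 or DSS + EA mouse 2 (adjusted p from 0.0513 to 0.102) and its lower level without DSS + EA mouse 2 or 3 (adjusted p = 0.0779 and 0.0932), and the rise of *Clec10a* was lost without control mouse 1 or 2 or DSS mouse 2 (adjusted p from 0.0509 to 0.0650). Of the markers under the filter, *Clec9a* was at 1.81 mean CPM in control and 0.103 in DSS mice, *Cd209a* at 3.08 and 0.175, and *Xcr1* at 0.903 and 0.144, and *Siglech* was at 0 in every DSS mouse. These 4 were not tested and lie near or under the floor of 3 counts in DSS mice. The others under the filter were also untested and did not show such a drop. *Flt3* was at 0.877 mean CPM in control and 0.813 in DSS mice, *Zbtb46* at 0.5315 and 1.354, and *Itgax* at 1.062 and 1.485.

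The 12 B cell markers summed to 22.1 to 42.9 CPM in control, 16.7 to 33.6 CPM in DSS and 38.5 to 85.0 CPM in DSS + EA mice. The control and DSS mice overlapped, and 0 of the 3 markers tested were called for DSS against control with edgeR or DESeq2, with 1 lower at an unadjusted P under 0.05 in each. Most of each B cell sum was *Cd79a* and *Cd79b*. *Cd79a* was at 15.7, 9.42 and 19.9 mean CPM in control, DSS and DSS + EA mice and was not called in any comparison. *Cd79b* was at 8.77, 7.03 and 14.35 mean CPM in the same order. *Cr2* and *Fcer2a* were at 0 in every DSS mouse. Of the 3 B cell markers tested, *Ms4a1* (log2 fold change 4.13, SE 1.01, adjusted p = 0.0119) and *Cd79b* (log2 fold change 1.01, SE 0.30, adjusted p = 0.0262) were higher in DSS + EA than in DSS. The *Ms4a1* value rests on 0, 3 and 0 counts in the DSS mice. *Cd79b* was not called without DSS mouse 3 (adjusted p = 0.0765) or DSS + EA mouse 3 (adjusted p = 0.123), and 0 of the 3 were called without both DSS + EA mice of raised pancreatic counts. Within its group, DSS + EA mouse 3 held the most B cell marker reads and the highest levels of *Cd74* and *Ciita*. DSS + EA mouse 1 had the highest level of each class II chain, of *H2-DMb1* and of *Ctss*, and DSS + EA mouse 2 that of *H2-DMa*. Colon epithelium markers, 12 genes, summed to 16587 to 33427 CPM in control, 2923 to 13763 CPM in DSS and 13928 to 20578 CPM in DSS + EA mice. Most of each sum was *Car1* and *Lgals4*. *Car1* was at 12065, 1452 and 6026 mean CPM in control, DSS and DSS + EA mice and *Lgals4* at 5263, 3315 and 5241. Of the 12 markers, 7 were lower with DSS and 6 were higher in DSS + EA than in DSS. Leaving out a single mouse gave 4 to 11 lower with DSS and 2 to 11 higher with EA. Of the first, the 4 was without DSS mouse 2 and the 11 without DSS mouse 1, and of the second, the 11 was without DSS mouse 1, the 2 without DSS mouse 2 or DSS + EA mouse 1, the 3 without DSS + EA mouse 2 or 3 and the 4 without control mouse 1. The part of these cell types in the levels of the members was not tested.

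Of the remaining lists, T cell markers gave 1 higher of 5 tested for DSS against control and 1, *Lck*, for DSS + EA against DSS, where DESeq2 called 0 of 5 (adjusted p = 0.0596 for *Lck*). That call was lost without control mouse 2, any DSS mouse, or DSS + EA mouse 1 or 3 (adjusted p from 0.0513 to 0.146). Neutrophil markers gave 8 higher of 9 with DSS, and 1 higher and 7 lower in DSS + EA than in DSS. Stromal and muscle markers gave 6 higher and 2 lower of 9 with DSS, and 5 lower in DSS + EA than in DSS. Without both DSS + EA mice of raised pancreatic counts, 0 neutrophil, 1 epithelium and 3 stromal and muscle markers were called between DSS + EA and DSS. All 12 pancreas acinar markers were higher in DSS + EA than in DSS. DSS + EA mouse 2, with the most pancreatic reads, had the lowest levels of *H2-Ab1*, *H2-Aa*, *H2-Eb1*, *Cd74* and *H2-DMb1* in its group, and each still lay above every DSS mouse.

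**Figure D5:**
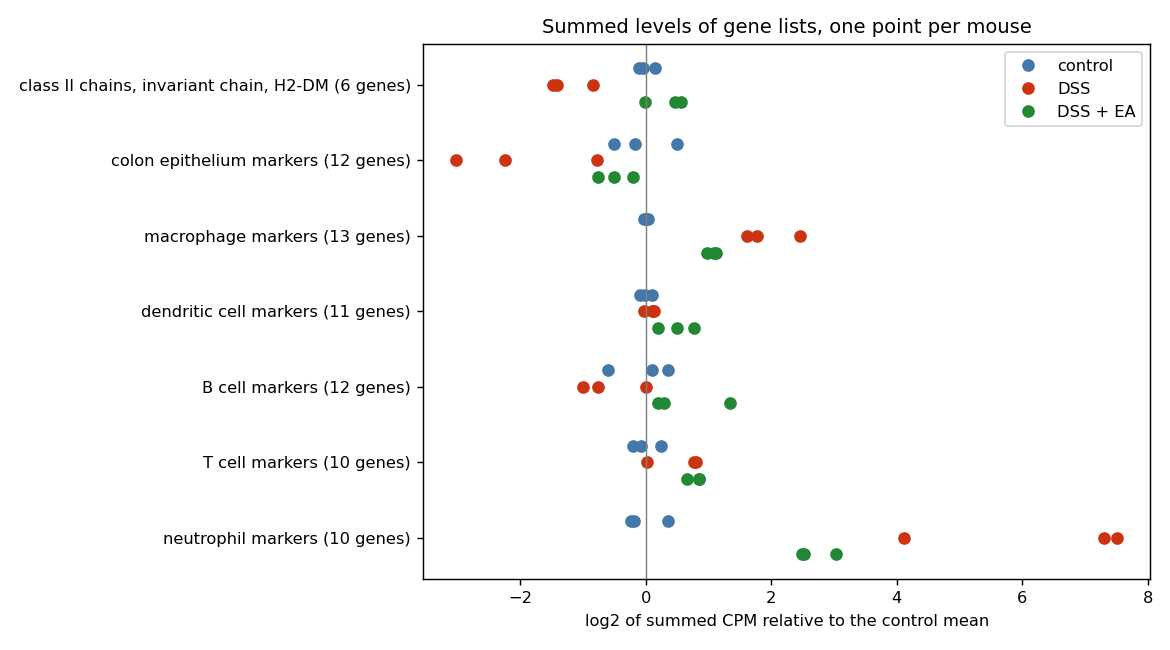
Summed CPM of gene lists in each mouse, as log2 ratio to the mean of the control mice, with mice as points. The 6 genes of the chains, the invariant chain and H2-DM lie between -1.48 and -0.84 in DSS mice and between -0.01 and 0.57 in DSS + EA mice, the macrophage markers lie above 0 in both groups, and the epithelium markers reach -3.02 in DSS mouse 3.

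The members were also compared in their pattern over the 9 libraries. The correlation of each member with the mean scaled level of all 8, of which it is a part, was between 0.906 and 0.962 for 7 members and -0.22 for *Ctss*. The 6 genes outside the members with the highest Pearson correlation to that mean were *Ncapg* (0.977), a locus listed as new (0.977), *Rpp40* (0.973), a further new locus (0.967), *Tmem184b* (0.965) and *Apaf1* (0.961). *Ncapg*, which encodes a condensin subunit, was at 8.36 ± 1.54 CPM (SD, n = 3) in control, 4.78 ± 2.07 in DSS and 15.2 ± 1.15 in DSS + EA mice. These values describe 9 libraries in 3 groups and share the group differences given above.

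By the study's thresholds, a log2 fold change beyond 2.5 and a P under 0.01, 0 of 8 members were called in any of the 3 comparisons with either edgeR or DESeq2, where 10.2%, 6.41% and 2.08% of all genes passed in DSS against control, DSS + EA against DSS and DSS + EA against control. At an unadjusted P under 0.05 alone, 6, 7 and 3 members passed with edgeR, and 6, 7 and 3 with DESeq2.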

How the data were processed

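Colon RNA from 9 mice was read as full-length cDNA on a Nanopore PromethION. Whole-number, unnormalized counts per gene were deposited by the authors, and the submitters' processing notes name the build mm10. The aligner, the counter and the use of strand are not given in the sources used here. Of 27733 lines, 14 hold no counts and were skipped, and 22022 of 22036 Ensembl identifiers are in GENCODE M21. Symbols that the table holds as dates were matched by identifier.

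Library totals were 2627695 to 4235576, and floors of 3 counts cover counting error only, since PCR copies were not told apart from molecules. The test was that of edgeR 4.0.16 in R 4.3.3 (TMM, filterByExpr by group, prior count 0.125, quasi-likelihood F test) in a single fit of the group alone over 9 libraries, and 12566 genes were kept. P-values were adjusted over all of these by Benjamini-Hochberg. The SE of a log2 fold change is that change divided by the square root of F. The labels give the mice of a group as separate samples, and p-values measure the spread between these. DESeq2 1.42.0, the tool named in the study's methods, was an alternative, with RLE or library totals, other count filters, a prior count of 2, the 2 groups alone, the replicate number as a block and each mouse left out. The functions were tested on simulated data. Python 3.11.15, pandas 2.3.3 and matplotlib 3.10.9 were used for tables and figures.

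The members and the gene lists were chosen with earlier results of these data known, so no p-value was adjusted over a list and no list was tested. All 8 members are named, beside genes of the related lists with a direct role in class II presentation, cell type markers counted as lists, and the 6 genes most alike in pattern. *Siglech*, *Clec9a*, *Cd209a*, *Xcr1*, *Irf8*, *Lck*, *Cr2*, *Fcer2a* and the single markers given with values were named after their values were seen, and the related genes were read from the alternatives after the data were seen. A gene of the related lists is not reported here. The human samples and protein measurements of the study were not analysed here.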

Additional observations from a re-analysis of the deposited data

How the results depend on the processing

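Of 428 values of the members' log2 fold changes under the alternatives, 405 kept their direction and side of the threshold, 20 lost a call, 3 gained a call and 0 changed direction. The 428 include the prior count of 2, which left the p-values as they were and so could not move a call. *Ciita* for DSS against control accounted for most of the lost calls. By the study's thresholds 1280, 806 and 261 genes and 0, 0 and 0 members were called for DSS against control, DSS + EA against DSS and DSS + EA against control. For DSS + EA against control, DESeq2 called 697 genes, and the fit of only the 2 groups called 1147 genes and 2 members. With both DSS + EA mice of raised pancreatic counts left out, 807 genes and 4 members were called for DSS + EA against DSS and 54 genes for DSS + EA against control. Leaving out each mouse in turn gave 4082 to 6400 genes and 5 to 6 members for DSS against control, 3033 to 6061 genes and 6 to 7 members for DSS + EA against DSS, and 107 to 772 genes and 0 to 1 members for DSS + EA against control. For the last, the count moved by over 1.5 times without control mice 1, 2 and 3 (107, 147 and 266 genes), without DSS + EA mice 1, 2 and 3 (262, 289 and 134) and without DSS mouse 1 (772), and the cause was not tested.

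Mice share only a replicate number. The 9 correlations of the deviations of same-numbered mice lay between -0.16 and 0.11, and with the replicate number as a block 4543, 3826 and 363 genes and 5, 7 and 0 members were called in the 3 comparisons. Depth limits statements on *Ciita*, which a filter at a mean of 20 counts left untested, and on *Ifng*.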
